A study of Mus musculus with 7 samples.

Results

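Axon guidance ligands and receptors were examined in long bone that the labels call osteocyte-enriched. The group comprised the semaphorins, plexins, neuropilins, ephrins, Eph receptors, Slits, Robo receptors 1 to 3, netrins 1 and 4, and the netrin receptors Dcc, Neo1 and Unc5. Members were taken by gene symbol among probe sets naming exactly 1 gene. They numbered 68 of the 19938 genes named in this way. Of the 68, 47 passed the filter on low signal (mean intensity of about 69.7) and 21 did not. Unc50 and Unc5cl, both among the 47, share only the start of their symbol with the netrin receptors and are kept apart below.

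The mice were males of 39 to 41 weeks, and RNA came from their long bones. The 4 control mice are labelled wildtype and are littermates of the 3 knockout mice, which are labelled as a Dmp1-Cre knockout of Mbtps1. Mbtps1 encodes site-1 protease, a Golgi enzyme that cleaves membrane-bound transcription factors such as SREBP and ATF6. The Dmp1 promoter drives Cre mainly in osteocytes and late osteoblasts, so many other cells in the bone pieces are meant to keep the gene. Which cells lost it was not measured in these bulk samples. Whether the controls carried Cre or floxed alleles is not given in the sources used here. Marrow was removed and the bone pieces were treated in turn with collagenase and EDTA before RNA isolation.

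Guidance proteins steer growing axons by attraction or repulsion, and outside the nervous system they carry signals between neighbouring cells. Semaphorins signal through plexins, with neuropilins as co-receptors for the secreted ones. Slits act on Robo receptors, netrins on Dcc, neogenin and Unc5 receptors, and ephrins on Eph receptors, often in both directions between touching cells. In bone, several of these pairs are known to pass signals between osteoclasts and osteoblast-lineage cells, among them semaphorin 4D with plexin B1, semaphorin 3A with neuropilin 1, and ephrin B2 with EphB4.

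Values are given as linear intensities of a gene's probe set. Log2 fold changes are knockout minus control on the log2(intensity + 16) scale, with the standard error (SE), and understate changes of low-signal genes. P-values are from limma over the 13938 genes above the filter, and adjusted p-values follow Benjamini and Hochberg over all of these. The median intensity of an array lay between 87.3 and 107.7. Control 4 lay far from the other controls in many members and marker genes, so results are given with and without it. Mbtps1 itself read 149 ± 12.9 (SD) in controls and 125 ± 24.9 in knockouts, with knockout 3 (154) inside the control range (limma adjusted p = 0.807). All 13 osteocyte markers listed, among them Dmp1, Mepe and Sost, passed the filter. Markers of marrow cells were also abundant, and the summed intensity of 10 neutrophil markers ran from 29068 to 34635 over the arrays. RNA of bulk bone cannot tell fewer cells of a type from less RNA per cell.

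No guidance gene passed the adjusted threshold of 0.05, and neither did any other gene with all arrays (0% of all genes tested). The smallest adjusted p among members was 0.559. At an unadjusted p under 0.05, 10 of the 47 members were lower in knockout bone (21.3%), against 2.71% of all genes tested. A single member was higher at that level, which is 2.13% of the 47, against 3.77% of all genes. The 10 lower members were the semaphorin genes Sema5a, Sema6d, Sema3d and Sema7a, the Slit genes Slit2 and Slit3, both neuropilin genes, and the netrin receptor genes Neo1 and Unc5b. Sema3d passed the filter through its controls, with a knockout mean (63.9) under the filter (69.7). The filter thus favoured its place here and in the later counts that name it. Without the filter, 10 of all 68 members were lower at that level, against 2.06% of all genes. The median log2 fold change of the 47 was 0.02 and that of all genes tested 0.07, and 36 of the 47 members passed no level in either direction.

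**Figure D1:**
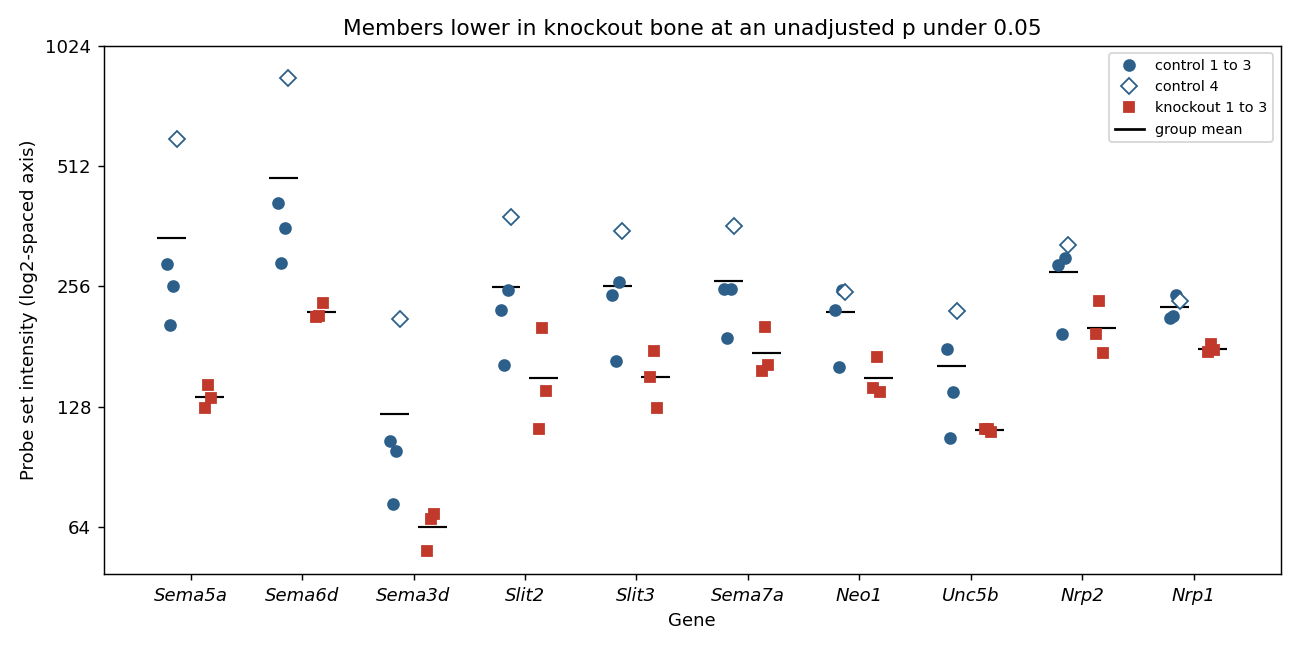
Intensity on each array (log2-spaced axis) of the 10 members lower in knockout bone at an unadjusted p under 0.05, ordered by log2 fold change; circles are controls 1 to 3, open diamonds control 4, squares knockouts 1 to 3 and lines group means. Control 4 is the highest array in 8 of the 10 genes, and in Sema5a, Sema6d, Sema3d and Nrp1 the squares lie under every control.

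Promoter windows of Sema5a, Slit2 and Slit3 are printed below. These genes come from the 10 members picked for being low, so their being low together is part of that choice. RefSeq windows on GRCm38.p6, from 250 bases before to 50 after the start of a gene, were matched by symbol for 58 of the 68 members and for all 10 lower ones. The printed windows run 5′ to 3′ on the strand of the gene, with every GC box (GGGCGG on either strand) in capitals. Sema5a is at chr15:32244563-32244862 (plus strand), Slit2 at chr5:47982905-47983204 (plus strand) and Slit3 at chr11:35121206-35121505 (plus strand).
Sema5a: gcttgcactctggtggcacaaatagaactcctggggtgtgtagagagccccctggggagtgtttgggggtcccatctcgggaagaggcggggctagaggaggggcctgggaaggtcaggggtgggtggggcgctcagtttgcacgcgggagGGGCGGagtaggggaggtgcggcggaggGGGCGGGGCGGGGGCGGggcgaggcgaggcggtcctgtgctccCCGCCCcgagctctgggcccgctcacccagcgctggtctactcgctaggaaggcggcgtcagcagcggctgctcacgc
Slit2: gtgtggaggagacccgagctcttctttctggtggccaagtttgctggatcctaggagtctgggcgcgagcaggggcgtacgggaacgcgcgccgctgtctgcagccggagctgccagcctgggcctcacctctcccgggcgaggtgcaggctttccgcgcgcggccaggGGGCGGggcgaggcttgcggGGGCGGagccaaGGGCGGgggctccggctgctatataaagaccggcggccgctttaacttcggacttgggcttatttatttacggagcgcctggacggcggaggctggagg
Slit3: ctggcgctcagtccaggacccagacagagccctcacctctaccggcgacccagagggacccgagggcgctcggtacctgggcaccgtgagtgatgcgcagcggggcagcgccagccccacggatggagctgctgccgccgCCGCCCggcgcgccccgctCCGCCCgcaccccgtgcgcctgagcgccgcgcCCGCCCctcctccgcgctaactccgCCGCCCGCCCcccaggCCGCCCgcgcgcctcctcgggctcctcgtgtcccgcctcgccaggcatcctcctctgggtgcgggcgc
The window of Sema5a holds 5 GC boxes, that of Slit2 3 and that of Slit3 6, counting overlapping ones. A GC box, the site of Sp-family factors, was found in 9 of the 10 lower members (not in Sema3d), in 24 of the 30 other tested members with a window, and in 35.7% of all 32851 windows. The sterol regulatory element of SREBP (searched as TCACNCCAC) and the ER stress response element of ATF6 were sought because site-1 protease cleaves these factors. Neither string was found on either strand in any of the 74 member windows, against 1.24% and 0.119% of all windows. The cAMP response element (TGACGTCA) and the AP-1 site (TGANTCA) were in no window of the 10, against 1.79% and 7.81% of all windows, and the RUNX string TGTGGT was in 1 of the 10 (Sema6d), against 16.8% of all windows. None of these other motifs was in the printed windows, so none could overlap a GC box there. A string match is not a bound site, and a missing string says only that these letters are not in the window.

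Among the semaphorins, the ligands of plexins, 16 of 20 were above the filter. Among these 16, 4 were lower at an unadjusted p under 0.05 and none was higher, against 2.71% and 3.77% of all genes tested. The same shares stand beside the family counts below. The median log2 fold change of the 16 was 0.07. Sema5a encodes a transmembrane semaphorin with thrombospondin repeats. It read 291, 205, 256 and 598 in controls 1 to 4 and 127, 145 and 135 in knockouts 1 to 3. Control 4 was far above the other controls, and the knockouts lay close together under all 4. The log2 fold change of Sema5a was -1.11 (SE 0.27, 95% interval -1.69 to -0.53, limma adjusted p = 0.559), 2.16-fold lower. Without control 4 it was -0.81 (SE 0.13, limma adjusted p = 0.0513), a smaller difference with a smaller error.

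Sema6d, another transmembrane semaphorin and a ligand of plexin A1, read 414, 293, 358 and 851 in controls 1 to 4. Its 3 knockouts read 214, 216 and 232, again under every control and close to one another. The log2 fold change was -0.94 (SE 0.27, limma adjusted p = 0.619), and -0.63 without control 4 (SE 0.13, limma adjusted p = 0.0958). Sema3d encodes a secreted semaphorin. It read 105, 73.0, 99.3 and 212 in controls 1 to 4 and 55.8, 66.8 and 69.0 in the knockouts. All controls were above all knockouts, but control 2 lay only just above knockout 3, and the knockout mean was below the filter, so this gene passed the filter through its controls. The log2 difference was -0.70 (SE 0.25), or -0.43 without control 4.

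Sema7a, anchored in the membrane by a lipid and a ligand of plexin C1 and of integrins, read 252, 189.9, 252 and 363 in controls and 157, 203 and 163 in knockouts. Knockout 2 lay above control 2, so the groups overlapped. This gave a log2 fold change of -0.53 (SE 0.19), and -0.38 without control 4. Sema4c read 189, 139, 163 and 299 in controls and 151, 161 and 159 in knockouts. Its log2 fold change of -0.25 (SE 0.20) became -0.05 without control 4, the highest array.

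Sema3a and Sema4d, the semaphorins best known from bone, did not pass that level. Sema3a, a secreted semaphorin that restrains osteoclasts, read 120.1, 86.2, 104 and 137 in controls and 102, 177 and 121 in knockouts. Its log2 fold change was 0.21 (SE 0.18, 95% interval -0.18 to 0.60), and knockout 2 was the highest of the 7 arrays. Leaving out 1 array gave values from 0.0086 (without knockout 2) to 0.36 (without knockout 1). Sema4d, which osteoclasts make and which restrains osteoblasts, read 426, 428, 465 and 318 in controls and 440.4, 402 and 391 in knockouts. The log2 difference was 0.02 (SE 0.15, 95% interval -0.31 to 0.35). A second probe set of Sema4d gave a difference of 0.03. Sema4b had the highest log2 fold change of the tested semaphorins, 0.39 (SE 0.20), and Sema4a had 0.28 (SE 0.19). Without control 4, the lowest array for both, these became 0.19 and 0.11. The other 7 tested semaphorins lay between 0.03 (Sema3f) and 0.22 (Sema3b).

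Plexins, the semaphorin receptors, showed no member past an unadjusted p of 0.05 among 7 tested of 9, with log2 fold changes from -0.20 to 0.28. Plxnb1, the receptor of semaphorin 4D, read 96.3, 80.3, 82.2 and 117 in controls and 121, 115 and 114 in knockouts. Control 4 lay among the knockouts and the other controls under them. This gave a log2 fold change of 0.28 (SE 0.13, 95% interval -0.01 to 0.57), and 0.38 without control 4. Plxna2, a partner of neuropilins, read 144, 145, 208 and 166 in controls and 143, 141 and 139 in knockouts. Its groups were apart by less than 1 intensity unit, and the log2 fold change was -0.20 (SE 0.14), or -0.09 without control 3, the highest array. Plxnb2 read 192, 179, 210.1 and 177 against 171, 179 and 144, a log2 fold change of -0.19 (SE 0.13). Plxna1, a receptor partner of neuropilin 1, had 0.09 (SE 0.16, 95% interval -0.25 to 0.43).

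Both neuropilins, the co-receptors that secreted semaphorins share with vascular endothelial growth factor, were among the lower members. Nrp1 read 213, 216, 244 and 235 in controls and 176, 184 and 177 in knockouts. Every knockout was under every control, and control 4 was not the highest. The log2 fold change was -0.32 (SE 0.12, 95% interval -0.57 to -0.06, limma adjusted p = 0.696), and -0.30 without control 4. A two-sided exact permutation test over the 35 splits of the arrays gave Nrp1 p = 0.0286, the smallest it can give. In the same exact test the other 9 lower members had p from 0.0571 (Sema5a, Sema6d and Sema3d) to 0.229 (Unc5b), and none was under 0.05. All of these genes, Nrp1 included, were picked for being low on the same arrays. Their exact p-values are therefore a description and no further support. Nrp2 read 289.6, 195, 301 and 326 in controls and 194, 235 and 174 in knockouts. Knockout 2 was above control 2, and the log2 fold change was -0.42 (SE 0.18), or -0.34 without control 4.

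Slits are secreted proteins that act on Robo receptors, and Slit3 is known as a bone-active factor. Slit2 and Slit3, the tested pair whose promoters are printed above, were both lower. Slit3 read 243, 166, 263 and 352 in controls 1 to 4 and 152, 176 and 127 in knockouts 1 to 3. Slit2 read 223, 163, 250.4 and 381 in controls and 113, 201 and 140.3 in knockouts. In both genes control 2 was the lowest control and fell within the knockout range, so the groups overlapped. The log2 fold change was -0.66 for Slit3 (SE 0.20, limma adjusted p = 0.638) and -0.67 for Slit2 (SE 0.24, limma adjusted p = 0.675). Without control 4 they were -0.50 and -0.46.

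Slit1 read higher in knockouts, at low signal. It read 53.4, 48.5, 45.2 and 72.4 in controls and 93.8, 72.7 and 87.3 in knockouts. The groups were apart by less than 1 intensity unit, and the gene was below the filter. Its control mean (54.9) lay under the filter (69.7) and its knockout mean (84.6) above it, so the gene was left out through its controls. Fitted without the filter it had a log2 fold change of 0.51 (SE 0.15, limma unadjusted p = 0.00529, adjusted p = 0.837). Neither tested Robo receptor passed an unadjusted p of 0.05. Robo1 read 75.7, 70.3, 75.7 and 89.0 in controls and 78.6, 92.6 and 89.2 in knockouts, with a log2 fold change of 0.14 (SE 0.13, 95% interval -0.14 to 0.41). Robo2 had 0.03 (SE 0.16, 95% interval -0.32 to 0.39), a value that turned below 0 after quantile normalization (-0.04) and median centring (-0.03). Both signals lay close to the filter, and Robo3 lay under it.

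Among the 4 tested netrin receptors, 2 were lower at an unadjusted p under 0.05 (against 2.71% of all genes tested), and neither netrin passed that level. Neo1 encodes neogenin, a receptor of netrins and of repulsive guidance molecules. It read 223, 161, 251 and 248 in controls and 143, 170.1 and 139 in knockouts. Control 2 alone fell among the knockouts. Its log2 fold change was -0.49 (SE 0.16, 95% interval -0.83 to -0.15, limma adjusted p = 0.638), and -0.43 without control 4. Unc5b, a repulsive netrin receptor found on endothelial cells among others, read 179, 107, 139 and 222 in controls and 112, 112 and 111 in knockouts. The 3 knockouts were nearly equal, control 2 lay under them, and the log2 fold change was -0.43 (SE 0.19). Without control 4 it was -0.27, no longer past the unadjusted level. Ntn1 (-0.04, SE 0.15) and Ntn4 (0.00335, SE 0.15), the secreted ligands, had intervals from -0.37 to 0.29 and from -0.31 to 0.32. The sign of each turned when single arrays were left out. Unc5a had -0.11 and Unc5d -0.01, and a second probe set of Unc5d gave 0.15.

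**Figure D2:**
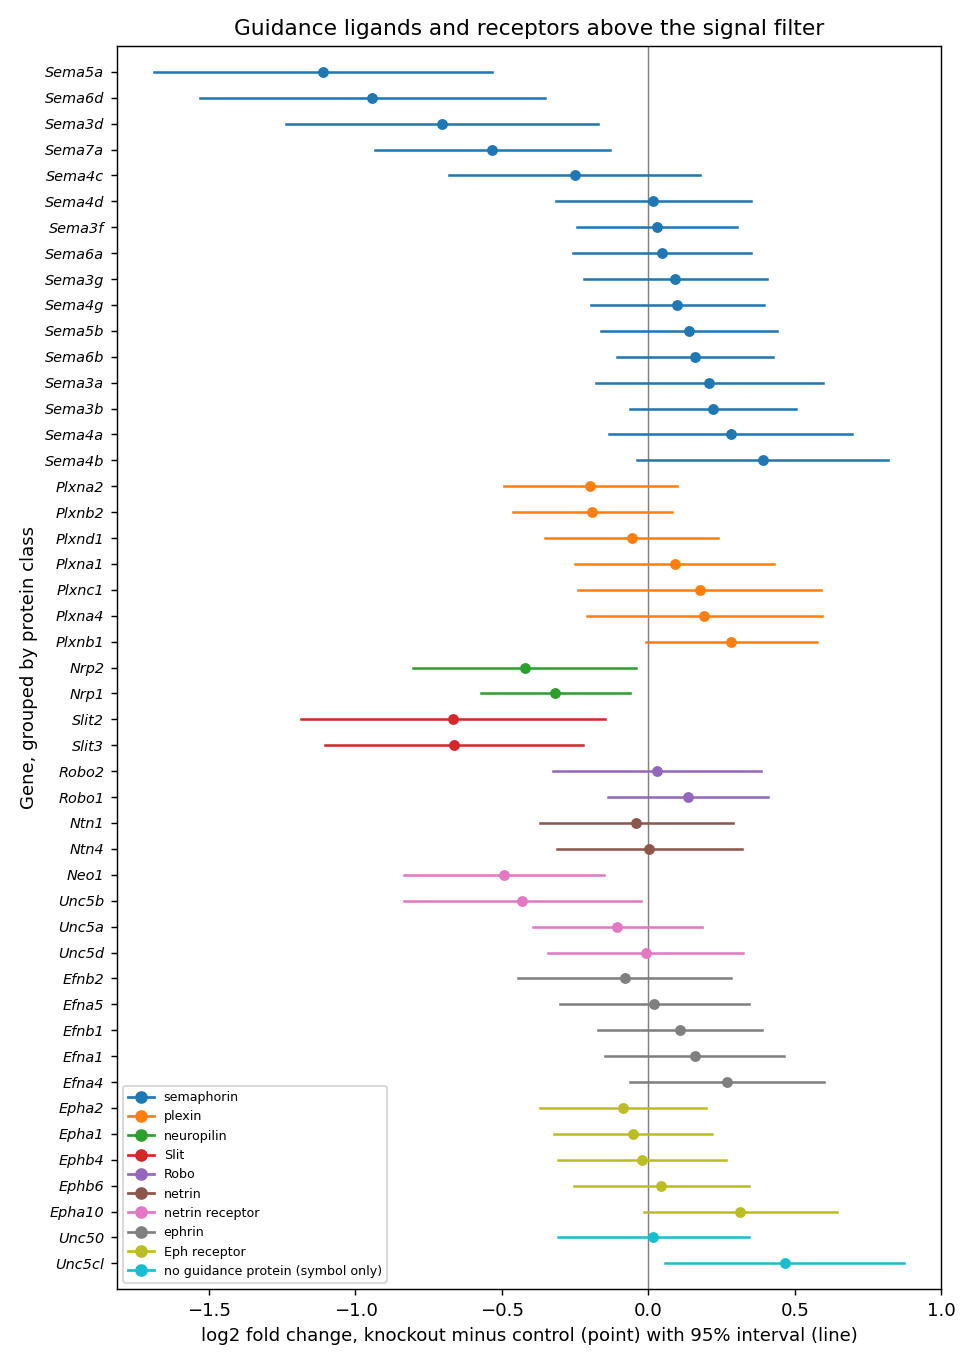
Log2 fold change (knockout minus control, points) with the 95% interval from limma (lines) for the 47 members above the filter, grouped and coloured by protein class. The intervals of 4 semaphorins, both neuropilins, Slit2, Slit3, Neo1 and Unc5b lie under 0, that of Unc5cl lies over 0, and all others include 0.

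Ephrins and Eph receptors, which signal between touching cells, gave no member past an unadjusted p of 0.05 among 10 tested. The 5 tested ephrins had a median log2 fold change of 0.11 and the 5 tested Eph receptors one of -0.02. Efnb2 read 97.6, 85.8, 83.4 and 149 in controls and 89.6, 97.5 and 98.0 in knockouts. The log2 difference was -0.08 (SE 0.17, 95% interval -0.44 to 0.28), and 0.08 without control 4, which alone exceeded the other arrays. Ephb4, the receptor of ephrin B2, read 122, 95.4, 115 and 140 in controls and 109, 113 and 124 in knockouts, with a log2 fold change of -0.02 (SE 0.13, 95% interval -0.31 to 0.26) and 0.05 without control 4. Epha2, a receptor on osteoblast-lineage cells, had -0.09 (SE 0.13, 95% interval -0.37 to 0.20). Its ephrin partner from osteoclasts, Efna2, was below the filter at 43.6 ± 20.1 (SD) in controls and 51.9 ± 5.97 in knockouts.

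Epha10, an Eph receptor without kinase activity, was the tested member whose knockouts all lay above all controls. It read 101, 85.7, 63.2 and 105.0 in controls and 118, 105.2 and 115 in knockouts, with a log2 fold change of 0.31 (SE 0.15). Knockout 2 exceeded control 4 by less than 1 unit, and the second probe set of Epha10 gave 0.09. Efna4 had 0.27 (SE 0.15), with control 4 (118) level with knockout 3 (119), and Efna1 had 0.16 (SE 0.14).

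Unc5cl was the single member higher at an unadjusted p under 0.05. It encodes a protein with a death domain and is not a netrin receptor. It read 96.9, 82.9, 56.0 and 117 in controls and 135, 102 and 139 in knockouts, and the groups overlapped at control 4. The log2 fold change was 0.47 (SE 0.19, limma adjusted p = 0.745). Unc50, also unrelated to netrin signalling, had 0.02 (SE 0.15).

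Groups did not overlap in 6 of the 47 members. Of these, 5 were lower in knockouts (10.6%, against 2.76% of all genes tested) and 1 was higher (2.13%, against 5.22%). The 5 were Sema5a, Sema6d, Sema3d, Nrp1 and Plxna2. Single arrays moved this count, to 13 lower without control 2 (against 5.31% of all genes) and 11 lower without knockout 2 (against 5.93%). Without control 4, 7 members were apart and higher (14.9%, against 11.7% of all genes). At 1.5-fold or more together with an unadjusted p under 0.05, 5 members were lower (10.6%, against 0.811% of all genes), namely Sema5a, Sema6d, Sema3d, Slit2 and Slit3. This count was 2 without control 4 (against 0.481% of all genes) and 8 without control 2 (against 1.29%). Near the filter, Sema4g was the nearest member inside, with 72.2 ± 9.48 (SD) in controls and 78.3 ± 8.49 in knockouts. Sema4f was the nearest outside, with 68.0 ± 15.4 and 71.1 ± 7.43. The 21 members under the filter were 8 Eph receptors, 4 semaphorins, 3 ephrins, 2 plexins, Slit1, Robo3, Dcc and Unc5c. Their values on single arrays ran from 22.7 to 93.8, and apart from Slit1 the groups overlapped in all of them. Without the filter, 10 of all 68 members were lower and 3 higher (Unc5cl, Slit1 and Epha8) at an unadjusted p under 0.05, against 2.06% and 3.67% of all genes.

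Control 4 set much of the spread among controls, and in opposite directions for different members. It was the highest control in 8 of the 10 lower members, the exceptions being Neo1 and Nrp1, and control 2 was the lowest control in 9 of them. Control 4 was also the lowest array for Sema4a, Sema4b, Sema4d, Plxna1, Plxna4, Plxnc1 and Unc50. Sema4b read 109 in control 4 and 189 to 234 in the other controls, and Plxnc1 read 193 against 272 to 369. On the same array the summed intensity of the 10 B cell markers with a probe set was 2100 (3007 to 4510 in the other controls, 3933 to 4503 in knockouts), and that of 7 erythroid markers was 4358 (7939 to 9407, and 8154 to 8796). For 9 macrophage and monocyte markers the sum was 4222 in control 4 (5669 to 6107, and 5149 to 5978). Megakaryocyte and adipocyte sums were also lowest on control 4. The neutrophil sum differed less, at 32406.5 in control 4 (33681.5 to 34635 in the other controls, 29068 to 34100 in knockouts). Sums of osteocyte, osteoclast, skeletal muscle, and nerve and Schwann cell markers were highest on control 4. The part of these cells in the values of these genes was not tested.

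**Figure D3:**
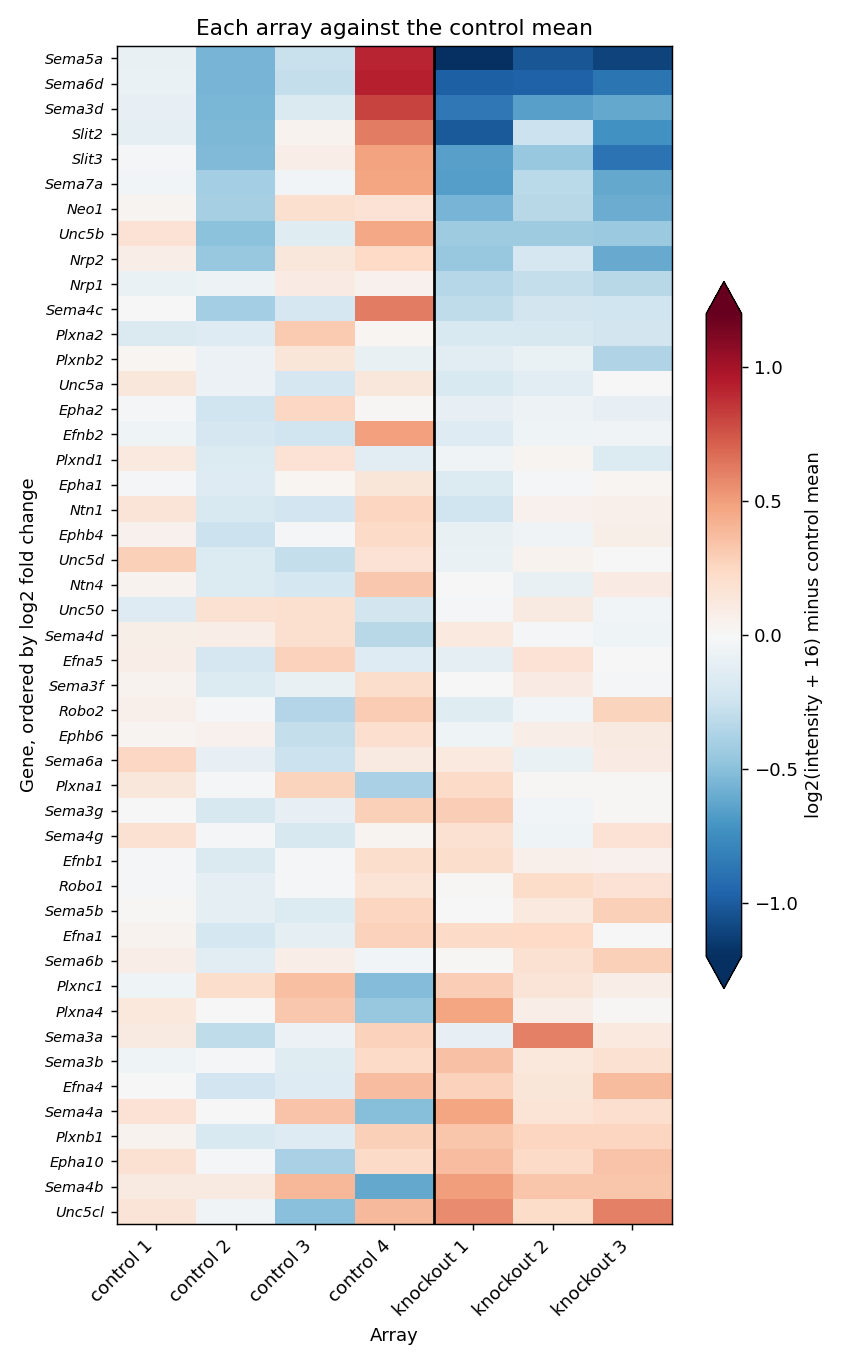
Difference of each array from the control mean, as log2(intensity + 16), for the 47 members above the filter (rows, ordered by log2 fold change) on the 7 arrays (columns, controls left of the line). Control 4 is high in the top rows and low in Plxnc1, Plxna4, Sema4a and Sema4b, while the 3 knockouts are low in the top 10 rows.

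Leaving out control 4 made the lower members' differences smaller without turning any. All 10 stayed below 0, and 9 of them kept an unadjusted p under 0.05, all but Unc5b. These 9 were 19.1% of the tested members, against 3.52% of all genes without control 4. At that level 5 members were then higher, Efna4, Epha10, Plxnb1, Sema3b and Unc5cl (10.6%, against 9.41% of all genes), a share near the background. Without knockout 1, 5 members were lower (10.6%, against 1.38% of all genes), and these were Sema5a, Sema6d, Sema3d, Slit3 and Neo1. The same 5 were lower at an unadjusted p under 0.05 whichever single array was left out. The 10 lower members were picked on these same arrays, so keeping their sign or level in most of these refits is partly given by that choice. In Nrp1, Nrp2, Sema7a, Slit2 and Unc5b that level was lost without at least 1 array.

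**Figure D4:**
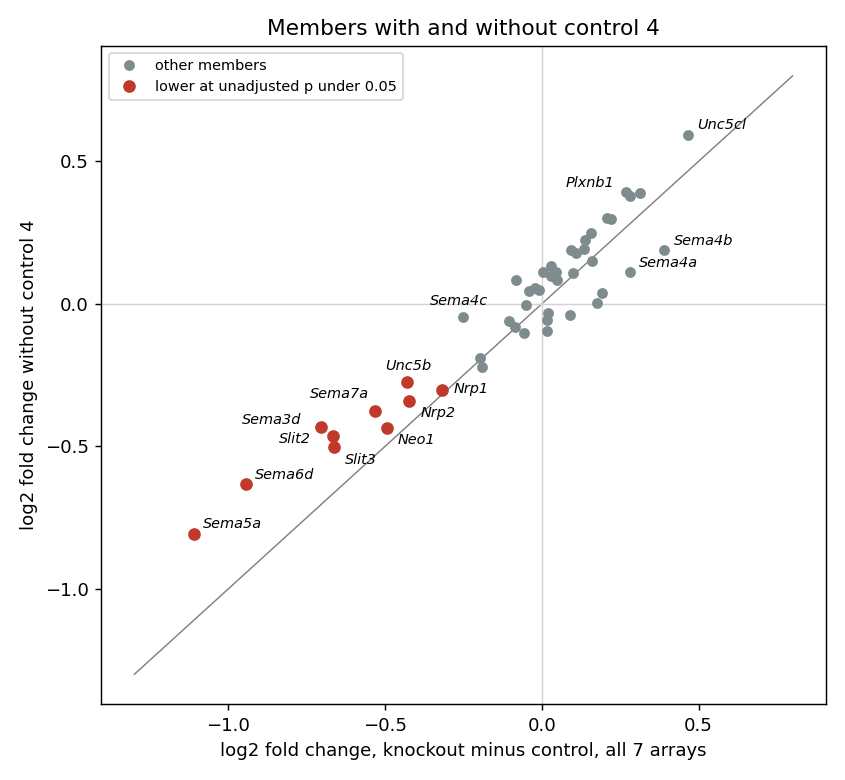
Log2 fold change with all 7 arrays (horizontal) against that without control 4 (vertical) for the 47 members above the filter; the line marks equal values, and the 10 lower members are red. The red points other than Nrp1 and Neo1 lie clearly above the line, so their differences shrink without control 4, and all stay under 0.

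Markers of cell types in the sample were counted in the same way. At an unadjusted p under 0.05, 2.71% of all genes tested were lower and 3.77% higher. Median log2 fold changes lay near 0 in the endothelial (-0.03), osteoclast (0.01), neutrophil (-0.0069), skeletal muscle (-0.0075) and nerve (7.8e-04) lists. They were further from 0 in the osteoblast (-0.31), adipocyte (-0.10), macrophage and monocyte (0.08), erythroid (0.22) and megakaryocyte (0.37) lists. Without control 4 these became -0.32, -0.28, -0.06, -0.007 and 0.13 in the same order. The macrophage and erythroid medians thus did not stay above 0. The medians nearer 0 then lay between -0.07 (neutrophil) and 0.08 (nerve). Of 13 osteocyte markers, 8 were lower and 1 higher at an unadjusted p under 0.05 (median log2 fold change -0.91). Their summed intensity ran from 6262 to 13469 in controls and from 4200 to 5198 in knockouts, with control 4 the highest of all arrays, as in Sema5a and Sema6d. Of 9 osteoblast markers with a probe set, 4 were lower and none higher (sums 6610 to 11423 and 5741 to 8334). Of 10 endothelial markers, 2 were lower, Emcn (-0.58) and Tek (-0.26), and none higher (sums 1983 to 2482 and 1979 to 2308). Of 10 nerve and Schwann cell markers with a probe set, 5 were below the filter, all 5 of them neuronal (Tubb3, Nefl, Nefm, Prph and Uchl1). One nerve marker was lower (Pmp22), 1 was higher (Sox10), and the sums were 1290 to 1676 and 1296 to 1343. Of 10 osteoclast markers, 2 were below the filter, 1 was higher and none lower (sums 5016 to 7113 and 5090.0 to 6411). None of the skeletal muscle or megakaryocyte markers passed that level, and 1 adipocyte marker and 2 neutrophil markers were lower. No erythroid or macrophage and monocyte marker passed it. Without control 4, 3 adipocyte markers, 1 neutrophil marker and 1 macrophage and monocyte marker were lower (against 3.52% of all genes). On the same arrays 2 skeletal muscle markers were higher (against 9.41%). Of 10 B cell markers, 2 were higher, Pax5 (0.40) and Vpreb3 (0.63), and none lower, with a median of 0.38 (0.21 without control 4). The part of these cell types in the members' differences was not tested.

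Partners of the guidance receptors were taken from lists set out with the members. Of 18 tested co-receptors and further ligands, 1 was lower at an unadjusted p under 0.05 and none was higher, with a median log2 fold change of 0.02. That gene was Flrt2, a membrane ligand of Unc5 receptors, with a mean of 191 ± 53.6 (SD) in the controls and 119.6 ± 20.6 in the knockouts (log2 fold change of -0.59, SE 0.19, limma adjusted p = 0.638). Alcam (0.25), Itga1 (-0.23) and Rgma (0.20), a ligand of neogenin, came next by p and did not pass. Of 50 tested signal mediators, 4 were lower and none was higher, with a median of -0.03. Among all genes tested, 2.71% were lower and 3.77% higher at that level.

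Those 4 mediators were Enah, Farp2, Maged1 and Srgap1. Enah, an actin filament regulator that acts below guidance receptors, read 270.3, 195, 273 and 445 in controls and 153, 185 and 148 in knockouts. As in the Slits, control 4 was highest and control 2 lowest among controls, but here every knockout lay under every control. This gave a log2 fold change of -0.75 (SE 0.21, limma adjusted p = 0.605), or -0.55 without control 4. Farp2, a guanine exchange factor of semaphorin signalling, had -0.54 (SE 0.17). Maged1, which binds Unc5 receptors, had -0.41 (SE 0.13), or -0.40 without control 4. Srgap1, which Robo receptors recruit, had -0.44 (SE 0.20), or -0.24 without control 4, no longer past the unadjusted level. The share of mediators lower at that level, 4 of 50, can be read beside the 2.71% of all genes.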

How the data were processed

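Gene expression was measured on 7 Affymetrix whole-transcript arrays, 1 per mouse (4 control, 3 knockout), with groups and numbers from the labels. The deposited values are linear probe set intensities made by the authors. Per the submitters' processing notes, PLIER and Affymetrix Expression Console 1.4 were used, with no settings listed. How background was corrected, how arrays were normalized and which build was used is not given in the sources used here. Labels do not say which mice shared a litter, and the number of arrays limits the precision.

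Of the probe sets, 21789 name 1 gene in the platform annotation. The symbols of all 68 members matched RefSeq (GRCm38.p6) by Entrez identifier. Where a gene had several probe sets, the one with the highest mean signal was taken. Genes whose mean log2 signal was under the 30th percentile were left out, leaving 13938. Among members, 5 have 2 probe sets.

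The comparison used limma 3.58.1 in R 4.3.3, without covariates and with a trend of variance on mean, on log2(intensity + 16), with 5 residual degrees of freedom (12.6 with those borrowed). The test was run on simulated data with independent noise for each gene and array. That check does not cover an array that departs in many genes at once, as control 4 does. The members and gene lists were chosen with earlier results of these data known. Named were members past an unadjusted p of 0.05 or with groups apart, the smallest p in each class, members known from bone, those nearest the filter, and the 4 smallest p in each partner list. Sema4a, Sema4b, Sema4c, Sema3b, Plxna4, Plxnc1 and members that give the end of a range were named after their values were seen. Each result was recomputed leaving out arrays, with array weights or a replicate block, with no trend or a robust one, with the mean of probe sets, after median centring or quantile normalization, and with other offsets and filters. The shares of all genes with groups apart when 1 array is left out, and the list counts without control 4, were added after seeing the data. Figures were drawn with matplotlib 3.10.9.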

Additional observations from a re-analysis of the deposited data

How the results depend on the processing

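The limits of these values are the 3 and 4 arrays per group, the spread set by control 4, and signals near the filter, where most Eph receptors, ephrins and Robo genes lay. The count of lower members at an unadjusted p under 0.05 (10) was between 7 and 10 under the 12 settings other than leaving out 1 array. The share of all genes under these settings ran from 2.06% without the filter to 4.14% after quantile normalization. With 1 array left out the count was between 5 and 10 (1.38% to 3.52% of all genes). The count of higher members (1) was 3 without the filter (against 3.67% of all genes), 0 with the filter at the 50th percentile (3.11%), 2 after quantile normalization (3.82%), 6 with array weights (9.94%), 4 without controls 3 and 4 (8.14%), and 0 to 5 with 1 array left out (0.947% to 9.41%). Members with groups apart and knockouts lower (5) numbered 10 after quantile normalization (against 4.47% of all genes) and 9 after median centring (4.02%), and 5 to 13 with 1 array left out (3.35% to 5.93%). Members with groups apart and knockouts higher (1) numbered 2 without the filter (5.40%), 0 with the filter at the 50th percentile (4.36%), 0 with the mean of probe sets (5.25%), 8 without controls 3 and 4 (17%, below the 21.5% of all genes), and 1 to 7 with 1 array left out (6.17% to 14.1%). The median of the members (0.02) was -0.12 with the filter at the 50th percentile, which tests fewer of them. The causes of the other shifts were not tested.

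The replicate numbers are shared between groups, but the labels do not tie them to litters. Deviations of same-numbered arrays from their group means correlated at 0.07, 0.15 and -0.53 across genes, so the numbers were not taken to pair the mice. No knockout correlated best with the control of its own number. With the replicate block, in which control 4 has a number of its own and only 2 residual degrees of freedom remain, 5 members were higher (against 8.44% of all genes), 9 lower (3.43%) and 2 passed the adjusted threshold (0.445%), Sema5a (-0.81, limma adjusted p = 0.00973) and Sema6d (-0.63, limma adjusted p = 0.0425).

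Of the 34 members followed through all settings, 26 kept their sign throughout, among them all 10 lower members. The others had values near 0. Efnb2 turned to 0.0297 with array weights, 0.0836 with the block and 0.0458 without controls 3 and 4, and ranged from -0.16 to 0.0836 with 1 array left out. Epha2 turned to 0.0431 without controls 3 and 4. Ephb4 turned to 0.0604 with array weights, 0.0545 with the block and 0.0792 without controls 3 and 4 (-0.11 to 0.0545 with 1 array left out). Ntn1 turned to 0.0105 with array weights and 0.0456 with the block (-0.12 to 0.0574). Ntn4 turned to -4.69e-04 with an offset of 64, -0.0695 after quantile normalization and -0.0555 after median centring (-0.0656 to 0.11). Plxna1 turned to -0.0393 with the block (-0.0393 to 0.18). Robo2 turned to -0.0389 after quantile normalization and -0.0282 after median centring (-0.0869 to 0.13). Sema4d turned to -0.0412 after median centring, -0.0511 with array weights, -0.0939 with the block and -0.0540 without controls 3 and 4 (-0.0939 to 0.0815).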
